A study of Mus musculus with 20 samples.

Results

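The transcripts of 10 genes for angiogenic ligands, their endothelial receptors and an endothelial marker were followed in the mouse uterus just before implantation: Vegfa, Vegfc, Kdr, Flt1, Flt4, Angpt1, Angpt2, Tek, Pecam1 and Angptl4. They form a named set of genes that was matched by gene symbol, without a criterion on their values. The set was, however, chosen with earlier results of these data known. Each matched 1 of the 45777 genes in the table of transcript levels, and all 10 were above 0 TPM (a transcript level scaled for transcript length and for the library total) in all 20 libraries and so were among the 18706 genes tested. All mice were pregnant B6D2F1 females of wild-type genotype, aged 8 to 12 weeks, and 1 uterine horn of each was taken at 18:00 on day 3.5. The control group (5 mice) had neither drug nor injection. The implantation failure (IF) group (5 mice) had received 3 mg/kg RU486 subcutaneously at 9:00 on day 3.5. RU486 is mifepristone, which blocks the progesterone receptor and the glucocorticoid receptor. The PBMC group (5 mice) and the PBMC-hCG group (5 mice) had the same RU486 injection and, on day 1.5, an injection of peripheral blood mononuclear cells of non-pregnant mice into the uterine horns. In the PBMC group the cells had been cultured without hormone. In the PBMC-hCG group these cells came from a 24 h culture with 5 IU/mL human chorionic gonadotropin (hCG). RU486 is therefore shared by all groups other than the control group, and mice given medium without cells were not analysed here.

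VEGF-A is secreted by epithelial, stromal and immune cells and acts on blood vessel endothelium through its main signalling receptor KDR, while FLT1 binds it tightly and signals weakly, and a soluble form of FLT1 traps it. VEGF-C acts through FLT4, mostly on lymphatic endothelium. ANGPT1 activates the endothelial receptor TEK and keeps vessels quiet, and ANGPT2 competes with it and loosens vessels for sprouting or regression. Around implantation the uterine vessels become permeable and remodel, and ovarian steroids are known regulators of uterine Vegfa.

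The values were scaled to the same total in every library, so the number of reads behind them is unknown and no counting interval can be given. Each library had 22702 to 24097 genes above 0 TPM, and log2 levels correlated at 0.961 to 0.992 within groups. Control replicate 2 stood apart from the rest, with a median correlation of 0.963 with its own group, 22186 TPM of the ribosomal transcript Rn18s-rs5 against 5061 TPM in the lowest library, and the highest sum of the 7 adipocyte genes, at 702 TPM. IF replicate 5 had the next highest adipocyte sum, at 151 TPM, where the group medians lay between 5.39 and 7.73 TPM. The cell type was checked with 16 endothelial genes outside the set, among them Cdh5, Emcn, Tie1 and Cldn5. None of these 16 genes was at 0 in any library, and they summed to 1144 to 1530 TPM in the control group, 1559 to 1706 TPM in the IF group, 1542 to 1802 TPM in the PBMC group and 1710 to 1859 TPM in the PBMC-hCG group. In tissue libraries such as these, fewer cells of a type and less RNA per cell cannot be told apart.

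The members spanned a wide range of levels. In the control group Pecam1, which encodes the endothelial adhesion molecule CD31, was highest at 131 ± 10.2 TPM (SD, n = 5), followed by Vegfa at 82.6 ± 6.20 TPM. Angptl4, at 36.8 ± 13.8 TPM, Tek, at 28.4 ± 4.41 TPM, and Kdr, at 28.2 ± 5.35 TPM, came next, and their ranges overlapped from neighbour to neighbour. Flt1 stood at 14.3 ± 2.43 TPM, Flt4 at 12.3 ± 0.905 TPM, Angpt2 at 9.07 ± 1.97 TPM and Vegfc at 8.12 ± 1.19 TPM, again with overlapping ranges between neighbours. Angpt1 was lowest, at 4.61 ± 0.628 TPM, and its range lay below that of Vegfc. In the IF group Vegfa had risen to the level of Pecam1, at 171 ± 26.1 TPM against 171 ± 6.40 TPM, and the ranges overlapped.

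**Figure D1:**
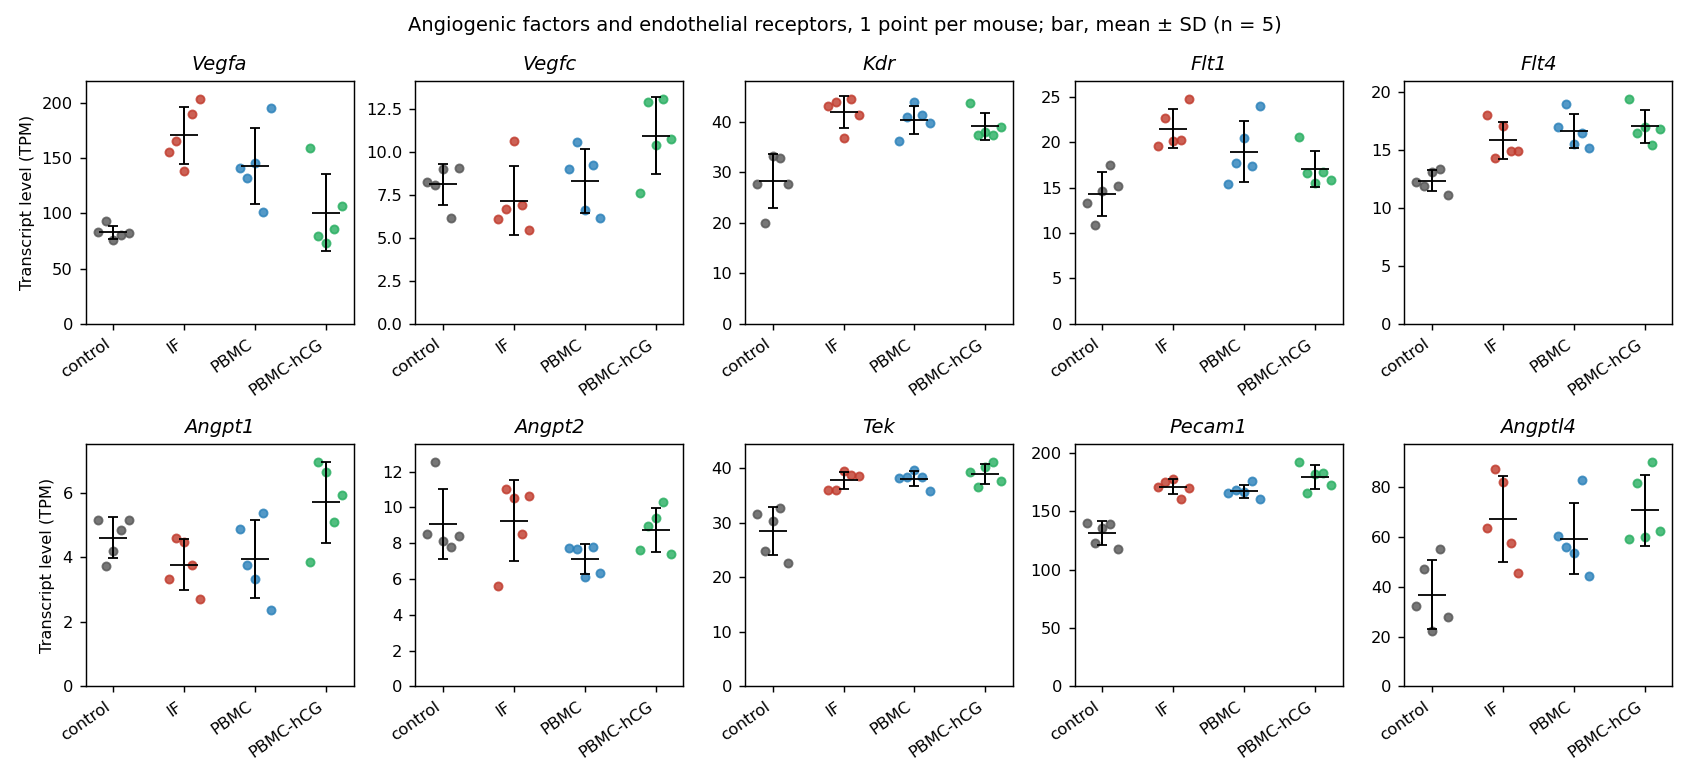
Transcript level in TPM (vertical axes, from 0) of the 10 genes by group, with 1 point per mouse and bars for mean ± SD (n = 5). Vegfa, Kdr, Flt1, Flt4, Tek and Pecam1 lay higher in all 5 IF mice than in all 5 control mice, and 4 of the 5 PBMC-hCG mice lay below every IF mouse in Vegfa.

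The comparison of the IF and control groups asked how these genes differed after RU486 without cells. The control mice had no injection, so effects of the drug and of its injection cannot be told apart. Vegfa doubled, its receptors Kdr and Flt1 rose by about 1.5-fold, and Flt4, Tek, Pecam1 and Angptl4 rose as well, while Vegfc, Angpt1 and Angpt2 did not pass the test. Of the 10 members, 7 were higher in the IF group at an adjusted p-value under 0.05 (limma on log2(TPM + 0.1), two-sided) and 0 were lower, where 13.4% of all tested genes were called higher and 8.53% lower. In 6 members all 5 IF mice were above all 5 control mice, as in 8.55% of tested genes. The members' median log2 fold change was 0.40 and that of all tested genes was 0.02. Only Vegfa also reached the study's criterion of a fold change of at least 2 with a raw p-value under 0.05, which 4.03% of tested genes met.

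Vegfa (chr17:46016993-46032377, minus strand, GRCm38) stood at 82.7, 92.6, 75.8, 80.1 and 81.9 TPM in the 5 control mice and at 156, 165, 139, 190 and 204 TPM in the 5 IF mice. The groups did not overlap, and the lowest IF mouse was well above the highest control mouse. The difference was 1.03 on the log2 scale (SE 0.18, 95% interval 0.65 to 1.41, adjusted p = 0.000443, limma), a 2.05-fold rise.

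Kdr (chr5:75932827-75979072, minus strand) had 27.7, 19.9, 33.2, 32.8 and 27.6 TPM in control mice and 43.1, 43.9, 36.7, 44.5 and 41.3 TPM in IF mice. The groups did not overlap, and control replicate 2, the library that stood apart, was the lowest of all. Its log2 fold change was 0.59 (SE 0.11, adjusted p = 0.000542, limma), or 1.50-fold, and was 0.47 or more whichever mouse was left out. Flt1 (chr5:147561604-147726438, minus strand), on the same chromosome, had 13.3, 10.9, 14.6, 17.5 and 15.2 TPM in control mice and 19.6, 22.6, 20.2, 20.2 and 24.8 TPM in IF mice. Here too every IF mouse was above every control mouse, and the fold change was 1.51 (log2 0.59, SE 0.13, adjusted p = 0.00226, limma). Flt4 (chr11:49609679-49652739, plus strand), the VEGF-C receptor, had 12.2, 11.9, 13.1, 13.3 and 11.1 TPM in control mice and 18.0, 14.3, 17.1, 14.9 and 14.9 TPM in IF mice. This rise was smaller, at 1.28-fold (log2 0.36, SE 0.08, adjusted p = 0.00486, limma), with groups that did not overlap. Its ligand Vegfc (chr8:54077532-54186454, plus strand) ranged from 6.15 to 9.08 TPM in control mice and from 5.44 to 10.7 TPM in IF mice, with a log2 difference of -0.20 (95% interval -0.60 to 0.19, adjusted p = 0.495, limma). The groups overlapped, and the interval holds changes of either sign.

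Tek (chr4:94739086-94874976, plus strand) stood at 31.5, 24.9, 30.3, 32.7 and 22.6 TPM in control mice and at 36.0, 35.9, 39.4, 38.7 and 38.5 TPM in IF mice, 1.34-fold higher (log2 0.42, SE 0.08, adjusted p = 0.000986, limma). The IF mice were closely grouped above a more scattered control group. The ligands of TEK showed no such difference. Angpt1 (chr15:42424667-42676977, minus strand) had 5.14, 3.72, 4.21, 4.84 and 5.14 TPM in control mice and 3.34, 4.59, 4.48, 3.76 and 2.70 TPM in IF mice, with a log2 difference of -0.30 (95% interval -0.73 to 0.14, adjusted p = 0.345, limma). Angpt2 (chr8:18690263-18741562, minus strand) had 8.49, 12.6, 8.11, 7.81 and 8.39 TPM in control mice and 5.63, 11.02, 10.5, 8.51 and 10.6 TPM in IF mice, with a log2 difference of 0.01 (95% interval -0.34 to 0.37, adjusted p = 0.970, limma). Both ligands overlapped between the groups, and control replicate 2 had the highest Angpt2 level of all 20 mice.

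Pecam1 (chr11:106654213-106715281, minus strand) had 140, 122, 136, 139 and 118 TPM in control mice and 171, 175, 177, 161 and 170 TPM in IF mice. The groups were far apart for their spread, and the 1.31-fold rise (log2 0.39, SE 0.05) had the lowest adjusted p of the members, 4.70e-05 (limma). Angptl4 (chr17:33774900-33781575, minus strand) encodes a secreted protein that inhibits lipoprotein lipase and does not bind TEK. It stood at 32.2, 47.1, 22.2, 55.0 and 27.7 TPM in control mice and at 63.5, 87.1, 82.0, 57.4 and 45.4 TPM in IF mice. IF replicate 5 lay below control replicates 2 and 4, so the groups overlapped, and the rise was 1.87-fold (log2 0.90, SE 0.23, adjusted p = 0.00899, limma). Angptl4 is also made by adipocytes, and in the adipocyte-rich libraries, control replicate 2 and IF replicate 5, it stood at 47.1 and 45.4 TPM. Without those 2 libraries, an alternative chosen after seeing the data, its log2 fold change was 1.14. All 7 rises passed the test whichever of the 10 mice was left out.

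The sequences before the transcription start of Vegfa and of its receptors Flt1 and Kdr are shown because these genes rose together in the IF group. Flt4 and Tek rose as well, and their windows are described without being printed. RefSeq positions for GRCm38.p6 were found for all 10 members and promoter entries for 6 of them. Angpt1, Angpt2, Pecam1 and Angptl4 had no promoter entry. Each window holds the 250 bases before an annotated start, from 5′ to 3′ on the strand of the gene. Capitals mark a GC box (GGGCGG), the hypoxia response core (ACGTG or GCGTG) or a TATA box (TATAAA), each searched on both strands. The Vegfa window was chr17:46032378-46032627, the Flt1 window chr5:147726012-147726261 and the Kdr window chr5:75978456-75978705, all on the minus strand.
Vegfa: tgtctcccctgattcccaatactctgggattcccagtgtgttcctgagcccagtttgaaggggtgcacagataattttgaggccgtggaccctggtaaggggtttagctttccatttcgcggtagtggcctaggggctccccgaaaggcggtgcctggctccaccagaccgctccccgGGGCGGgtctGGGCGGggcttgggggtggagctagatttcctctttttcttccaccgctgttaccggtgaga
Flt1: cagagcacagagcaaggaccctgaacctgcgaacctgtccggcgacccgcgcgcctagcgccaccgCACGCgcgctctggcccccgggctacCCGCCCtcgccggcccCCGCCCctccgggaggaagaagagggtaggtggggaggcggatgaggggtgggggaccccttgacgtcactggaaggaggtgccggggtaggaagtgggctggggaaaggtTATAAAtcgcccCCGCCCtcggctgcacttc
Kdr: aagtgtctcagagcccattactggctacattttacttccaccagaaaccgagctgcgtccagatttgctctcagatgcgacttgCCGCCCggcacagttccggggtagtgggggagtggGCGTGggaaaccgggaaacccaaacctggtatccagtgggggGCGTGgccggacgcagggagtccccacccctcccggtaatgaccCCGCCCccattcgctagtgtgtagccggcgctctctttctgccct

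The Vegfa window, before the outermost annotated start, had 2 GC boxes and no hypoxia response core. Vegfa has an entry for a downstream start as well, whose window lies with 218 of its 250 bases in an annotated exon and is not shown, and that window had 1 GC box and 2 hypoxia response cores. The Flt1 window had 3 GC boxes, 1 hypoxia response core and 1 TATA box, and the Kdr window had 2 GC boxes and 2 hypoxia response cores. Among the other members, the Flt4 window had 3 GC boxes and the Tek window had no GC box. The window of Vegfc, which did not pass the test in IF against control, had 2 GC boxes. No hypoxia response core was in these windows of Flt4, Tek and Vegfc. Among the 32851 promoter windows of the same length, 32.7% held a GC box, 38.6% a hypoxia response core and 12.4% a TATA box. The full estrogen response element (GGTCA, any 3 bases, TGACC) was found in 0.0639% of all windows and the progesterone and glucocorticoid response element (AGAACA, any 3 bases, TGTTCT) in 0.00913%, and neither was in the windows of the members. The estrogen response half-site (GGTCA), held by 35.2% of all windows, had 1 match in the Kdr window, 1 in Tek and 2 in Flt4. It is not marked by capitals. A match is a run of letters and not a bound site, and the absence of one covers only these 250 bases. Flt1, Kdr and Tek also have an annotated start farther upstream. All 250 bases of the Flt4 window and 3 bases of the Kdr window lie in an annotated exon.

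**Figure D2:**
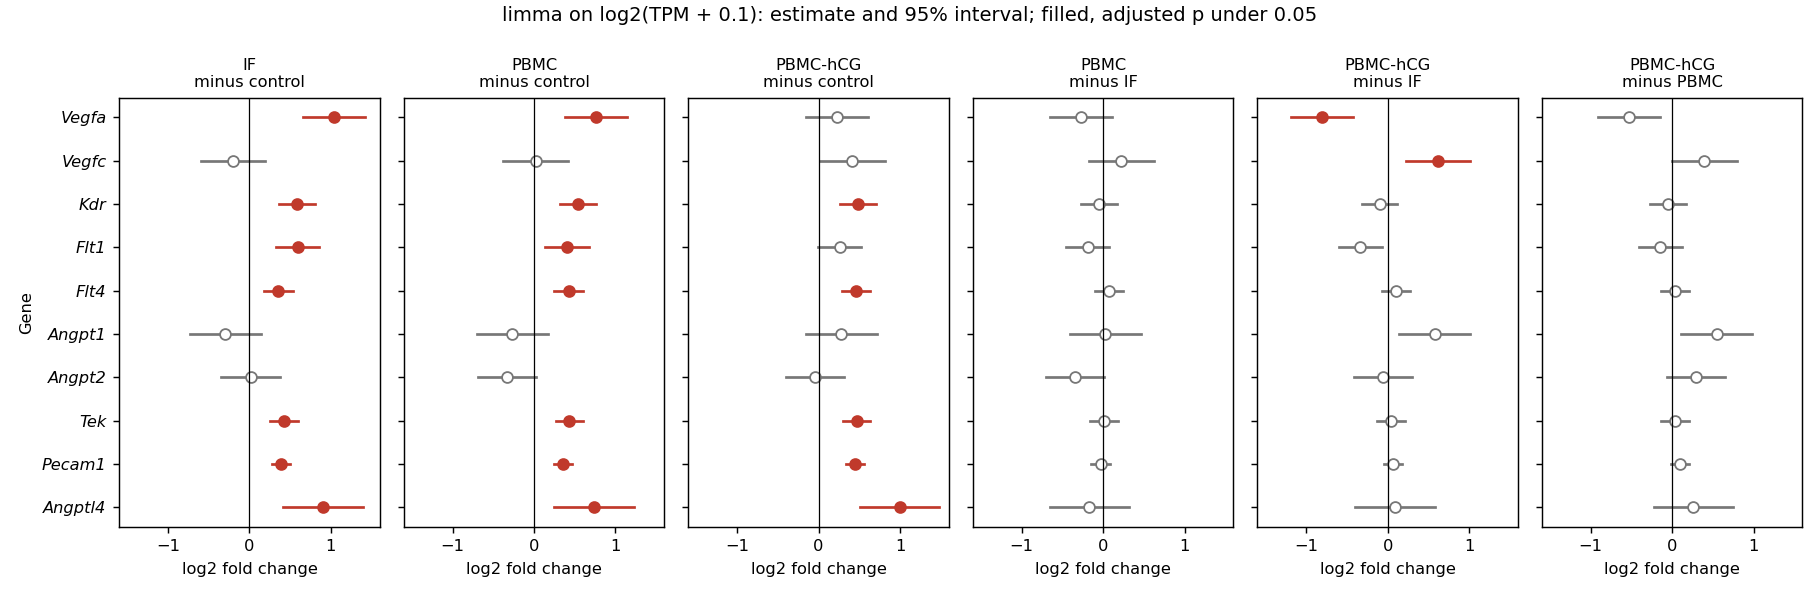
Log2 fold change (horizontal axes) of the 10 genes in the 6 comparisons, with points for the limma estimate on log2(TPM + 0.1), lines for its 95% interval and filled red points for an adjusted p under 0.05. In the comparisons with the control group, 7, 7 and 5 genes were called, all higher, while Vegfa (-0.81) and Vegfc (0.62) were the only ones called between PBMC-hCG and IF.

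Kdr, Flt4, Tek, Pecam1 and Angptl4 were above the control level in both groups of mice that had also been given cells, while Vegfa and Flt1 were so in the PBMC group and did not pass the test in the PBMC-hCG group. These comparisons use the same 5 control mice as the comparison above. In the PBMC group 7 of the 10 members were higher than in the control group and 0 were lower (limma), where 12.8% of tested genes were called higher and 6.70% lower. Their median log2 fold change was 0.42 and that of all tested genes 0.05. In the PBMC-hCG group 5 members were higher and 0 lower, where 20.2% of tested genes were called higher and 11.6% lower, with medians of 0.43 and 0.08. In these 5 members all PBMC-hCG mice were above all control mice, as in 13.2% of tested genes.

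Kdr ranged from 36.2 to 43.9 TPM (median 40.9) in the PBMC group and from 37.3 to 43.6 TPM (median 38.0) in the PBMC-hCG group, and no mouse of either group fell into the control range. Its log2 fold changes against control were 0.54 (adjusted p = 0.00134) and 0.49 (adjusted p = 0.00191, both limma). Tek showed the same closeness among mice, at 35.8 to 39.7 TPM and 36.5 to 41.1 TPM, with log2 fold changes of 0.44 (adjusted p = 0.000847) and 0.47 (adjusted p = 0.000311). Flt4 had 17.0, 18.9, 15.5, 16.5 and 15.2 TPM in PBMC mice and 19.4, 16.4, 17.0, 15.4 and 16.8 TPM in PBMC-hCG mice. Every one of these values was above the highest control mouse, and the log2 fold changes were 0.43 (adjusted p = 0.00134) and 0.46 (adjusted p = 0.000465). Pecam1 had 165, 168, 166, 176 and 161 TPM in PBMC mice and 192, 166, 182, 183 and 172 TPM in PBMC-hCG mice. Its log2 fold changes were 0.35 (adjusted p = 0.000130) and 0.45 (adjusted p = 9.45e-06). The Pecam1 values of all RU486-treated mice lay above those of all control mice.

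Vegfa had 142, 132, 145, 101 and 196 TPM in PBMC mice, which did not overlap with control, and its log2 fold change was 0.76 (SE 0.18, adjusted p = 0.00567, limma). In PBMC-hCG mice it had 159, 79.5, 72.9, 86.0 and 106 TPM. Replicate 1 of that group lay among the IF mice, replicates 2 and 4 lay within the control range, replicate 3 just below it and replicate 5 above it, and the log2 difference from control was 0.23 (95% interval -0.15 to 0.61, adjusted p = 0.360, limma). Without replicate 1 it was 0.05. Flt1 passed the test in the PBMC group, with a log2 fold change of 0.40 (adjusted p = 0.0299), and did not in the PBMC-hCG group, at 0.26 (95% interval -0.003 to 0.53, adjusted p = 0.123). The PBMC call was lost without control replicate 1 or 2 or PBMC replicate 3 or 5, with an adjusted p of up to 0.0777, and also with quantile normalization, with median centring, in a fit of those 2 groups alone and without the 2 adipocyte-rich libraries, with an adjusted p of up to 0.0996. Angptl4 was at 60.3, 55.8, 53.6, 82.8 and 44.1 TPM in PBMC mice and at 59.1, 81.6, 59.99, 90.1 and 62.2 TPM in PBMC-hCG mice, and all PBMC-hCG mice were above the highest control mouse. The log2 fold changes were 0.73 (adjusted p = 0.0322) and 0.99 (adjusted p = 0.00347), and the first lost its call without control replicate 1, 3 or 5 or PBMC replicate 1, 2 or 4, with an adjusted p of up to 0.0953. It was also lost without the filter on low values, with quantile normalization and in the fit of those 2 groups alone, with an adjusted p of up to 0.0784.

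Vegfc and the angiopoietins did not pass the test against control in either group. Angpt2 was at 7.75, 7.69, 6.10, 7.80 and 6.31 TPM in PBMC mice, all below the lowest control mouse, at 7.81 TPM, if narrowly, with a log2 difference of -0.33 (95% interval -0.69 to 0.03, adjusted p = 0.196, limma). That made 1 member of 10 without overlap in the lower direction, where 4.08% of tested genes were so, and 5 in the higher direction, where 8.65% were. Vegfc was 0.42 higher in the PBMC-hCG group on the log2 scale (95% interval 0.02 to 0.81, adjusted p = 0.102), and passed only without PBMC-hCG replicate 1, at 0.54 (adjusted p = 0.0350).

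The comparison of the PBMC-hCG and IF groups asked what an intrauterine injection of hCG-treated cells changed in RU486-treated mice. The IF mice had no such injection, so effects of the cells, the medium and the procedure cannot be told apart. Vegfa fell and Vegfc rose, so the 2 VEGF ligands moved in opposite directions, and none of the 3 VEGF receptors, Tek or Pecam1 passed the test. Of the 10 members 1 was called higher and 1 lower, where 13.6% of tested genes were called, 7.61% higher and 5.99% lower, and the members' median log2 fold change was 0.06 against 0.05 over all tested genes. Vegfa was 1.75-fold lower in the PBMC-hCG group (log2 -0.81, SE 0.18, 95% interval -1.19 to -0.43, adjusted p = 0.0264, limma). Of the 5 PBMC-hCG mice, 4 were below all 5 IF mice, and replicate 1, at 159 TPM, was within the IF range.

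Vegfc stood at 6.14, 6.72, 10.7, 6.93 and 5.44 TPM in IF mice and at 7.62, 12.9, 10.4, 13.1 and 10.8 TPM in PBMC-hCG mice. It was 1.53-fold higher (log2 0.62, SE 0.19, 95% interval 0.22 to 1.01, adjusted p = 0.0417, limma), and the groups overlapped through IF replicate 3, the highest of its group, and PBMC-hCG replicate 1, the lowest of its group. The replicate 1 library of the PBMC-hCG group was thus the one nearest to the IF group for both ligands.

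Both calls depended on single mice. The raw p-value of Vegfa lay between 4.14e-06 and 0.00126 and its log2 fold change between -0.99 and -0.70 across the 10 fits that each omit 1 mouse, while its adjusted p lay between 0.00431 and 0.0935 and was under 0.05 in 3 of the 10 cases. For Vegfc the log2 fold change lay between 0.53 and 0.77 and the adjusted p between 0.0109 and 0.134, under 0.05 in 2 of the 10 cases. The number of members called fell to 0 without IF replicate 2, 4 or 5 or PBMC-hCG replicate 2, 3, 4 or 5, was 1 without IF replicate 1, rose to 3 without IF replicate 3 and to 4 without PBMC-hCG replicate 1. The number of genes called over the whole table moved in the same way, from 2544 with all mice to 0 when either IF replicate 5 or PBMC-hCG replicate 3 was omitted, and to 5062 without IF replicate 3.

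Flt1 and Angpt1 came next to the ligands and did not pass adjustment. Flt1 was at 20.6, 16.6, 15.5, 16.7 and 15.8 TPM in PBMC-hCG mice, with 4 of 5 below every IF mouse, and differed by -0.33 on the log2 scale (95% interval -0.60 to -0.07, adjusted p = 0.0756, limma). Angpt1 was at 3.87, 6.96, 6.63, 5.10 and 5.94 TPM in PBMC-hCG mice, with 4 of 5 above every IF mouse, and differed by 0.58 (95% interval 0.14 to 1.01, adjusted p = 0.0649, limma). In both genes the remaining PBMC-hCG mouse was again replicate 1. The intervals of the other members bound what could have been missed. They ran from -0.32 to 0.12 for Kdr, -0.07 to 0.28 for Flt4, -0.12 to 0.22 for Tek and -0.05 to 0.18 for Pecam1 on the log2 scale. Those of Angpt2 (-0.41 to 0.30) and Angptl4 (-0.40 to 0.58) were wider.

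Between the PBMC and IF groups 0 of the 10 members and 0 of all 18706 tested genes passed adjustment (0% called, limma). No member had a raw p-value under 0.05, against 6.79% of tested genes. Angpt2 came nearest, at -0.34 on the log2 scale (95% interval -0.70 to 0.02, adjusted p = 0.746, limma). The Vegfa difference was -0.27 (95% interval -0.65 to 0.11, adjusted p = 0.783), with groups that overlapped widely.

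Between the PBMC-hCG and PBMC groups, which differed in hCG during the culture of the cells, 0 members passed adjustment, where 0.0107% of tested genes did, and 2 members had a raw p-value under 0.05 against 16.2% of tested genes. These were Vegfa, at -0.53 on the log2 scale (95% interval -0.91 to -0.15, adjusted p = 0.271, limma), and Angpt1, at 0.55 (95% interval 0.11 to 0.98, adjusted p = 0.283). The mean level of Vegfa therefore ran from IF (171 TPM) through PBMC (143 TPM) and PBMC-hCG (101 TPM) to control (82.6 TPM), and no 2 neighbours in that order differed at an adjusted p under 0.05.

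The ratio of Angpt2 to Angpt1, which sets the ligand that loosens vessels against the one that stabilizes them, was taken within each library. It was 1.65, 3.38, 1.93, 1.61 and 1.63 in control mice and 1.69, 2.40, 2.35, 2.26 and 3.93 in IF mice. It was 1.59, 2.05, 1.83, 1.45 and 2.68 in PBMC mice and 1.98, 1.29, 1.42, 2.03 and 1.25 in PBMC-hCG mice. All groups overlapped. The largest difference was between PBMC-hCG and IF, at -0.63 on the log2 scale (two-sided exact permutation test, p = 0.0397), and its adjusted p over the 6 comparisons was 0.238. The comparison of IF with control gave 0.31 (exact permutation p = 0.302, adjusted p = 0.362).

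The receptors rose together with other endothelial genes. Of the 16 endothelial genes, 10 were higher in IF than in control and 0 lower (limma), with a median log2 fold change of 0.36. The count of 10 was 6 when only those 2 groups were fitted. Over all tested genes, 13.4% were called higher in IF than in control and 8.53% lower. Sox18, a transcription factor of endothelial cells, was 0.64 higher (adjusted p = 0.00104), and Robo4, Egfl7 and Mmrn2 were 0.42, 0.43 and 0.42 higher. In the PBMC group 10 of 16 were higher than in control and in the PBMC-hCG group 12 of 16, with medians of 0.45 and 0.53. The shares of all tested genes called higher were 12.8% and 20.2%. Between PBMC-hCG and IF, 2 endothelial genes were higher, Emcn by 0.29 and Robo4 by 0.27, where 7.61% of tested genes were. Without any 1 of the 7 libraries that cost the members their calls in this comparison, this endothelial count was 0 as well. Pericyte and other mural genes changed in both directions. Of 8 mural genes, 4 rose in IF against control, led by Pdgfrb, a receptor for platelet-derived growth factor, at 0.72 (adjusted p = 1.01e-06), and Rgs5 fell by 0.38. Of 6 lymphatic genes, 3 rose, Lyve1 by 0.60, Pdpn by 0.81 and Mmrn1 by 0.39, and the lymphatic regulator Prox1 was at 0.32 (adjusted p = 0.154). In the PBMC and PBMC-hCG groups 4 of the 6 were higher than in control. Pdpn, which encodes podoplanin of lymphatic endothelium and stroma, was lower in PBMC-hCG than in IF, at -0.94 on the log2 scale (adjusted p = 0.0287, limma). Without IF replicate 5 or PBMC-hCG replicate 3, 0 tested genes were called between these groups. Every call of a listed gene between them, here and below, therefore depended on single mice.

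Kdr, Flt1, Flt4, Tek, Pecam1, Angpt2 and Angptl4 were therefore also set against the mean log2 level of the 16 endothelial genes in each library. Of these members, Angptl4 is also made by adipocytes. The mean was 5.95 ± 0.21 in control and 6.28 ± 0.04 in IF mice (SD, n = 5). In PBMC and PBMC-hCG mice it was 6.34 ± 0.10 and 6.42 ± 0.05. Of 42 such comparisons, 0 passed adjustment (exact permutation tests, lowest adjusted p = 0.167, where 5 against 5 mice can give no raw p below 0.00794). A single comparison at that lowest p cannot pass adjustment over 42 tests. The count of 0 therefore does not show that the relative levels were alike. Relative to this mean, Kdr was 0.26 higher in IF than in control (exact permutation p = 0.0476, adjusted p = 0.286), Flt1 0.27 higher (p = 0.0873) and Tek 0.10 higher (p = 0.0635). Angptl4 was 0.58 higher (exact permutation p = 0.103, adjusted p = 0.333) and Angpt2 differed by -0.31 (p = 0.333). Flt4 differed by 0.03 (exact permutation p = 0.722) and Pecam1 by 0.06 (p = 0.286), where their levels in TPM had differed by 0.36 and 0.39 on the log2 scale. Between PBMC-hCG and IF, Flt1 was lower, at -0.48, with groups that did not overlap (exact permutation p = 0.00794, adjusted p = 0.167), Kdr at -0.25 (p = 0.0238, adjusted p = 0.200) and Tek at -0.10 (p = 0.0397, adjusted p = 0.278). Relative Angpt2 levels were lower than in control, at -0.72 in the PBMC group (exact permutation p = 0.00794, adjusted p = 0.167) and at -0.51 in the PBMC-hCG group (p = 0.0238, adjusted p = 0.200).

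**Figure D3:**
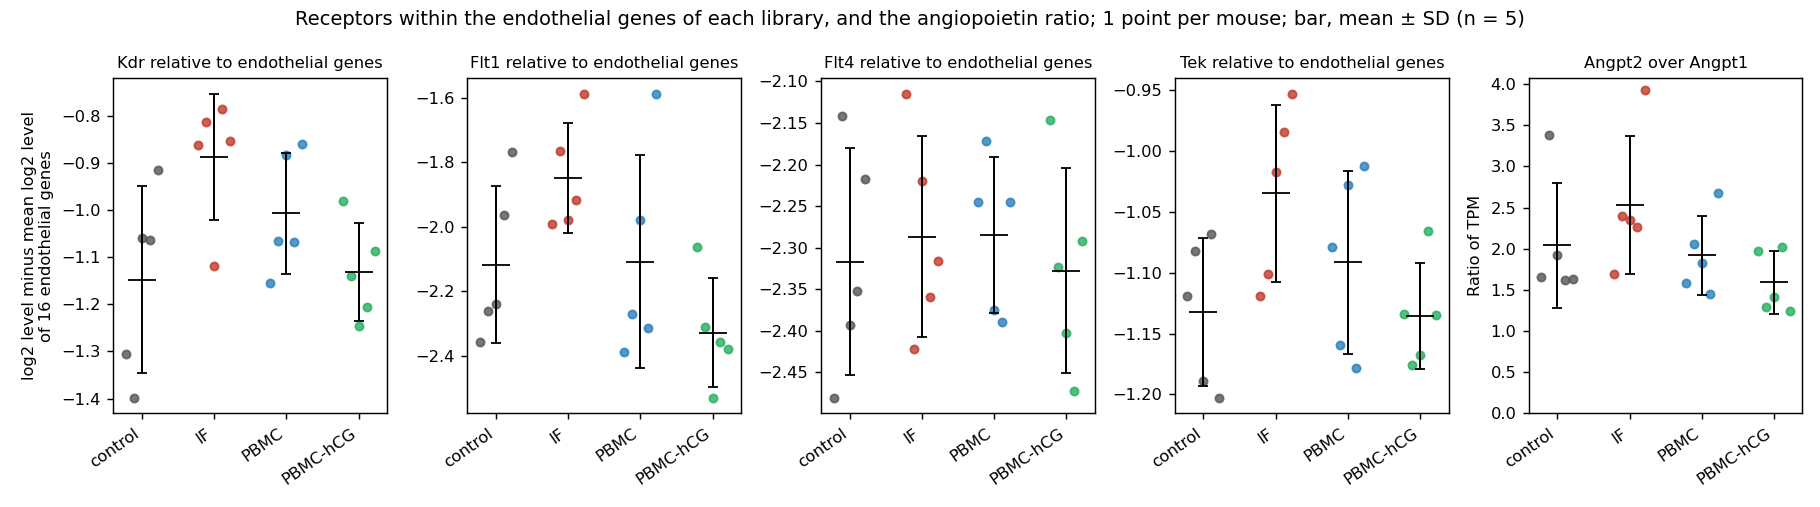
Log2 level of Kdr, Flt1, Flt4 and Tek minus the mean log2 level of 16 endothelial genes of the same library (first 4 panels, axes not from 0), and the ratio of Angpt2 to Angpt1 (last panel), with 1 point per mouse and bars for mean ± SD (n = 5). Flt1 was lower in all PBMC-hCG mice than in all IF mice (difference -0.48), Flt4 overlapped between all 4 groups, and no difference passed adjustment.

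Other genes of the VEGF pathway moved in both directions. Of 12 ligands, co-receptors and receptor partners, 5 were higher in IF than in control and 2 lower (limma), with a median log2 fold change of 0.41. Over all tested genes, 13.4% were called higher and 8.53% lower. Plxnd1, a semaphorin receptor of endothelial cells, was 0.48 higher (adjusted p = 1.52e-05), and the semaphorins Sema3f and Sema3a were 0.54 and 0.71 higher. Sema3c fell by 0.72, from 68.5 ± 5.69 to 42.7 ± 13.2 TPM (adjusted p = 0.000892). In the PBMC group 5 were higher than in control and 1 lower, against 12.8% and 6.70% of tested genes. In the PBMC-hCG group 4 were higher and 1 lower, against 20.2% and 11.6%, with the VEGF co-receptors Nrp2 and Nrp1 at 0.70 and 0.68. Between PBMC-hCG and IF, Nrp2 (0.36) and Vegfb (0.37) were higher and Sema3f fell by 0.45, where 7.61% of tested genes were called higher and 5.99% lower. These calls were lost without IF replicate 5 or PBMC-hCG replicate 3, when 0 tested genes were called.

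Of 10 other angiopoietin, TIE and angiopoietin-like genes tested, 3 rose and 2 fell in IF against control, where 13.4% of tested genes were called higher and 8.53% lower. Angptl7 had the largest change, from 292 ± 131 TPM in control to 40.8 ± 10.6 TPM in IF mice, a log2 fold change of -2.74 (adjusted p = 4.49e-06, limma). It was also lower than in control in the PBMC group (-2.43) and the PBMC-hCG group (-1.85). Ptprb, the phosphatase that restrains TEK, was 0.71 higher in IF mice and Svep1 fell by 0.71, and Angptl1 was 1.68 higher at under 1 TPM in every group mean. None of the 10 passed the test between PBMC-hCG and IF, where 13.6% of all tested genes did.

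Of 13 further angiogenic genes, 12 were tested and Gdf2 was listed at 0 in 14 libraries. Eng, a TGF-beta co-receptor of proliferating endothelium, rose from 104 ± 18.9 TPM in control to 231 ± 45.7 TPM in IF mice (log2 1.15, adjusted p = 2.09e-05, limma) and was lower in PBMC-hCG than in IF, by -0.51 (adjusted p = 0.0371). Adamts1, a protease with anti-angiogenic activity, had the same course, at 1.39 and -0.91. Thbs1, an inhibitor of angiogenesis, was 1.72 higher in IF mice (adjusted p = 0.00110), and its PBMC-hCG mice stood at -0.82 from the IF mice (adjusted p = 0.0949). In all 5 rose and 0 fell in IF against control, where 13.4% of tested genes were called higher and 8.53% lower. Between PBMC-hCG and IF 1 was higher and 2 were lower, against 7.61% and 5.99% of tested genes. The calls between these 2 groups were lost without IF replicate 5 or PBMC-hCG replicate 3. Robo4 and Tie1 are each on 2 of these lists.

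Lists were also made of genes known to respond to signals that also act on Vegfa and Angptl4. Of 12 genes induced by hypoxia, 2 rose in IF against control, the glucose transporter Slc2a1 by 0.65 and Ndrg1 by 0.59, and Pdk1 fell by 0.53. Over all tested genes, 13.4% were called higher and 8.53% lower, so these counts were near that share. The median log2 fold change over the 12 was -0.14. Between PBMC-hCG and IF, Egln1 and Pdk1 rose, both by 0.52, and Slc2a1 fell by 0.46, where 7.61% of tested genes were called higher and 5.99% lower. Omitting IF replicate 5 or PBMC-hCG replicate 3 removed these calls. Of 10 genes induced by PPARs, the fatty acid receptors that act on Angptl4, 4 rose and 0 fell in IF against control, with a median of 0.11. The shares of tested genes were again 13.4% and 8.53%. Pdk4 was 1.19, Cpt1a 0.48 and Plin2 0.40 higher. In the PBMC-hCG group 5 were higher than in control and 1 lower, against 20.2% and 11.6% of tested genes.

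**Figure D4:**
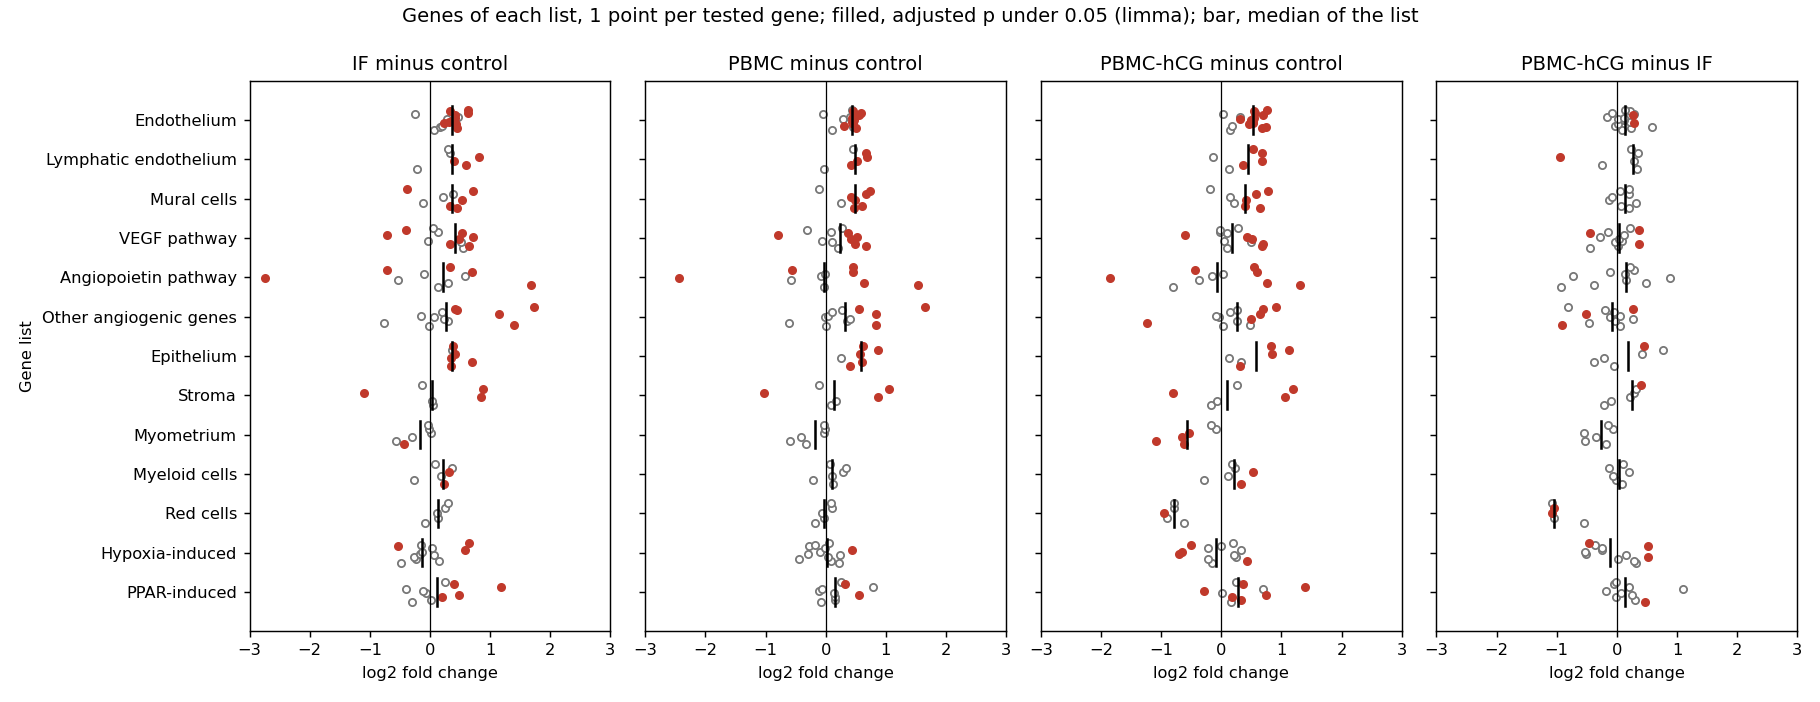
Log2 fold change (horizontal axes) of the genes of 13 lists in 4 comparisons, with 1 point per tested gene, filled red where the adjusted p was under 0.05 (limma), and a bar at the median of each list. Endothelial genes had medians of 0.36, 0.45 and 0.53 against control, while the hypoxia-induced genes lay around 0, with a median of -0.14 in IF against control.

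Markers of other cell types moved with these groups, and their part in the members' differences was not tested. Their counts stand against 13.4% of tested genes called higher and 8.53% lower in IF against control. In PBMC-hCG against control 11.6% were called lower. The 6 epithelial genes summed to 548 to 952 TPM in control and 843 to 1054 TPM in IF mice, and 5 of the 6 rose in IF against control. The 6 myometrial genes summed to 3739 to 7936 TPM in control, 3817 to 5181 TPM in IF and 3321 to 4249 TPM in PBMC-hCG mice, and 4 of the 6 were lower in PBMC-hCG than in control, led by Actg2 at -1.09. The 5 red cell genes summed to 640 to 1802 TPM in IF and 342 to 878 TPM in PBMC-hCG mice. Of them, 2 were lower in PBMC-hCG than in IF, against 5.99% of tested genes. Those 2 calls were lost without IF replicate 5 or PBMC-hCG replicate 3. Stromal genes changed in both directions in IF against control, Dcn by 0.84, Lum by 0.88 and Hoxa11 by -1.09. Of 6 myeloid genes, 2 rose in IF against control, Csf1r by 0.32 and Adgre1 by 0.23, and of the 5 lymphoid genes tested 0 did. The 6 genes of that list summed to 29.5 to 51.4 TPM in IF mice, and the B cell gene Ms4a1 was at 0 in 6 libraries. Of the 7 adipocyte genes only Fabp4 was above 0 everywhere, and it did not pass the test in IF against control (adjusted p = 0.595, limma), while Adipoq and Cfd were at 0 in 10 libraries, Cidec in 11, Plin1 in 12, Retn in 13 and Lep in 16.

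Over the 20 libraries, the genes whose log2 levels followed each member most closely were found among 15770 other tested genes with a mean of at least 1 TPM. These correlations describe libraries that share 4 groups, and carry no test. Tek and Pecam1 were both followed most closely by Mmrn2, an endothelial matrix protein on the endothelial list, at r = 0.971 and r = 0.965, and then by Esam (r = 0.955) and Sema7a (r = 0.938) for Tek and by Klf13 (r = 0.952) and Fgd5 (r = 0.947) for Pecam1. Kdr was followed by Sema5b (r = 0.943), Elk3 (r = 0.934) and Pxdn (r = 0.928), and Flt4 by Adgrf5 (r = 0.926), Ankrd11 (r = 0.901) and Arhgef2 (r = 0.899). The nearest genes to Flt1 were Ralb (r = 0.941), Atp1b3 (r = 0.933) and Actg1 (r = 0.933), which are not known as endothelial markers. Vegfa was closest to Ror2 (r = 0.968), a receptor for Wnt ligands, Ptpn5 (r = 0.961) and Krt86 (r = 0.953). Vegfc was closest to Tsc22d4 (r = 0.908), Gm46404 (r = 0.891) and Hsdl1 (r = 0.889). Angptl4 was closest to Cnrip1 (r = 0.925), Dlgap1 (r = 0.892) and Irs2 (r = 0.886), and Angpt1 to Wdr35 (r = 0.897), Smyd4 (r = 0.884) and Cc2d2a (r = 0.882). Angpt2 had the loosest neighbours, Mfge8 (r = 0.814), Mlxipl (r = 0.776) and Zbtb42 (r = 0.769). No gene of the set was among the 3 nearest of another.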

How the data were processed

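RNA of 1 uterine horn from each of 20 mice was measured by stranded mRNA sequencing, and groups were taken from the sample labels. The authors deposited TPM values, made by trimming with Trimmomatic, alignment to mm10 with HISAT2 and assembly with StringTie (versions not given in the sources used here). Library totals were between 999989 and 999999, so depth is unknown. The authors tested counts with edgeR, which was not possible on TPM.

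Values were transformed to log2(TPM + 0.1), and fold changes are on that scale, which understates changes of low genes. The fit took the 18706 genes with values above 0 throughout and all 4 groups, with limma 3.58.1 (R 4.3.3, trend on), two-sided, with Benjamini-Hochberg adjustment within each of 6 comparisons. Calls had an adjusted p under 0.05. The ratio and the levels relative to endothelial genes were tested by exact permutation (two-sided, 252 arrangements), adjusted over 6 and 42 tests. In simulated data for IF minus control, 178 of 200 genes changed by 1.5 on the log2 scale were recovered among 18706, with 5 false calls. The simulated noise was independent between genes, and all called members changed by less than 1.5. These numbers therefore do not give the recovery for changes of the members' size or for libraries with shared variation.

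The members and the gene lists were chosen with earlier results of these data known. From each list, up to 4 genes with the smallest adjusted p in a comparison are named, with any marker at 0 TPM (1 gene is not reported here), and for each member the 3 genes with the highest Pearson r. Replicate numbers are the labels' own. Over 30 same-numbered pairs the correlations of deviations ran from -0.247 to 0.457 (median -0.01), so the numbers were not taken to pair mice. No batch is given in the labels. Gene positions and promoter windows are those of RefSeq for GRCm38.p6, the build of mm10. Alternatives were pseudocounts of 1 and 0.01, a filter at a mean of 1 TPM and none, quantile normalization, median centring, a replicate block, no variance trend, fits of 2 groups, and each mouse left out. Figures were drawn with matplotlib 3.10.9.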

Additional observations from a re-analysis of the deposited data

Results flagged for a closer look

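Of 44 groups of 5 mice checked for 1 mouse far from the others (Dixon's test at the 95% level, critical value 0.71), 5 had such a mouse, and chance gives about 1 in 20 groups. Vegfc in IF replicate 3 was at 10.7 TPM, where the other IF mice reached 6.93 TPM at most. PBMC-hCG replicate 1 was the highest of its group for Kdr, at 43.6 TPM, and for Flt1, at 20.6 TPM. Control replicate 2 was the highest of its group for Angpt2, at 12.6 TPM, and for the ratio of Angpt2 to Angpt1, at 3.38. The latter library is also the one with the most adipocyte and Rn18s-rs5 transcripts.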

How the results depend on the processing

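The numbers of members called were the same or within 1.5 times under all alternatives in 5 of the 6 comparisons. In PBMC-hCG against IF, where 2 were called, 1 was without the filter on low values, 0 without control replicate 2 and IF replicate 5, the 2 adipocyte-rich libraries (an alternative chosen after seeing the data), and 0 to 4 when each mouse was left out. There the cause was not tested. Over the 10 alternatives other than leaving out each mouse, Vegfa was called in 9, Vegfc in 7 and Flt1 in 1. The number of endothelial genes called higher in that comparison (2) was 1 without the filter and 0 without the 2 adipocyte-rich libraries, and 0 to 3 when each mouse was left out. In IF against control it was 6 instead of 10 when only those 2 groups were fitted. The replicate block changed no count of members called, and 4 of the 20 libraries correlated best with their own number.

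Of the members' log2 fold changes under alternatives, 1120 kept direction and side of the threshold, 36 lost the call, 5 gained it and 39 turned sign, and those that turned sign were not called in any setting. With quantile normalization these were Angpt1 (-0.0163) and Pecam1 (0.0002) in PBMC against IF and Vegfc in PBMC against control (-0.0049). With median centring they were Angpt1 (-0.0003) and Tek (-0.0176) in PBMC against IF, Tek in PBMC-hCG against IF (-0.0158) and Vegfc in PBMC against control (-0.0129). Without the 2 adipocyte-rich libraries they were Angpt1 in PBMC against IF (-0.0807), Angpt2 (0.0057) and Angptl4 (-0.0398) in PBMC-hCG against IF, and Angpt2 in PBMC-hCG against control (0.0818).

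With each mouse left out, Angpt2 ranged from -0.0593 to 0.18 in IF against control, -0.102 to 0.0818 in PBMC-hCG against control and -0.22 to 0.0192 in PBMC-hCG against IF. In PBMC against IF, Angpt1 ranged from -0.0938 to 0.195 and Tek from -0.0044 to 0.0347. Vegfc ranged from -0.0738 to 0.12 in PBMC against control, Angptl4 from -0.0398 to 0.195 in PBMC-hCG against IF and Flt4 from -0.0127 to 0.0832 in PBMC-hCG against PBMC. Relative to endothelial genes, Flt4 ranged from -0.0127 to 0.0741 in IF against control, and the log2 ratio of Angpt2 to Angpt1 from -0.186 to 0.133 in PBMC against control.

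TPM carries no read depth, so the counting error of low members such as Angpt1 is not known. The fixed total means that a rise of abundant transcripts lowers all others.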
